A study of Mus musculus with 2 samples.

Results

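The genes of oxidative phosphorylation were taken from a table of 33640 gene symbols by symbol alone. Rows were kept that name subunits of complexes I to V by their usual prefixes (Nduf, Sdh, Uqcr, Cox4 to Cox8 and Atp5) or a protein gene of mitochondrial DNA (mt-Nd, mt-Co, mt-Cytb and mt-Atp), without pseudogene and Rik symbols. This gave 97 genes, of which 84 lie in the nucleus and 13 on mitochondrial DNA. The prefixes also take 3 genes that do not encode subunits, namely Cox7a2l, which encodes a factor that joins complexes III and IV, Atp5sl, which encodes an assembly factor of complex I, and its relative Atp5s. RNA came from the mitral valve of mice aged 5 months. One group was wild type and the other carried the Fbn1 C1039G missense allele on 1 chromosome (Fbn1C1039G/+), a mouse model of Marfan syndrome in which every cell has the allele. Tissue of 8 valves from both sexes went into each of the 2 libraries, the strain is not given in the labels, and no other allele or treatment is named. With 1 library per genotype no test could be made, and each difference stated here is one between 2 pools.

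Oxidative phosphorylation is carried out in the inner mitochondrial membrane. Complexes I and II pass electrons from NADH and succinate to ubiquinone, complex III passes them to cytochrome c, and complex IV passes them to oxygen. The protons moved by complexes I, III and IV drive complex V, the ATP synthase. Most subunits are made from nuclear genes and imported, while a small set of membrane subunits is made inside the organelle from mitochondrial DNA, and complex II is wholly nuclear. Heart muscle is rich in these transcripts and uses its own isoforms of some complex IV subunits, whereas valve leaflets are thin sheets of interstitial and endothelial cells.

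Values are TPM, transcript abundances that are scaled for transcript length and library total, so that levels of different genes can be set side by side. The depth of the libraries is unknown. The columns summed to 999964 in wild-type and 999945 in mutant valves. Differences between the pools were taken on a log2(TPM + 1) scale, where a negative value means less in mutant valves, and 17004 genes with a mean of at least 1 TPM were compared. The median difference of those genes was 0.14, so the typical gene had slightly more TPM in mutant valves. All 8 interstitial and all 6 endothelial markers were measured, with Dcn at 11409 and 9304 TPM in wild-type and mutant pools. All 20 cardiac muscle markers were measured as well, so neither pool was free of muscle transcripts.

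Most nuclear genes of oxidative phosphorylation had less TPM in mutant valves, whereas most genes with a mean of at least 1 TPM had more. Their sum was 13487 TPM in wild-type and 12113 TPM in mutant valves, a change of −10.2%. Of the 84 nuclear members 83 had a mean of at least 1 TPM, and their median difference was −0.15 with quartiles of −0.29 and 0.00098, against 0.14 over all genes. Among them 62 lay below 0, a share of 74.7%, where 35.1% of all genes did. A difference of at least 0.32 in size on the log2 scale, a ratio of 5 to 4 in TPM + 1, was reached on the lower side by 19 of the 83 (22.9%), against 11.3% of all genes. On the higher side it was reached by 7 (8.43%), against 32.7% of all genes. None of the nuclear members was at least 2-fold lower, where 1.72% of all genes were. Cox7b2 alone was at least 2-fold higher on this scale, where 4.81% of all genes were, and it had little TPM in both pools (0.301 and 2.72). The remaining member, Cox8c, an isoform gene of complex IV, was listed at 0 in both pools. The direction of the nuclear median was the same under every alternative that was run. Relative to the all-gene median 37 members rather than 19 were lower by at least 0.32. The share of 11.3% of all genes is for values before centring and cannot be set beside these 37.

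**Figure D1:**
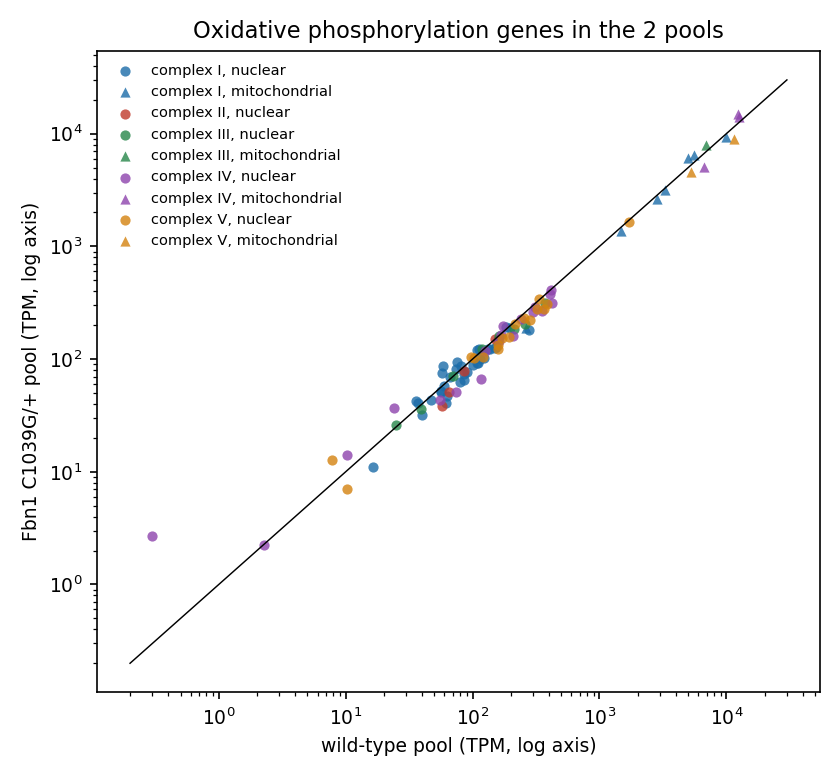
TPM of each gene in wild-type valves (horizontal, log axis) and in Fbn1C1039G/+ valves (vertical, log axis), coloured by complex, with circles for nuclear and triangles for mitochondrially encoded genes and a line of equal TPM; Cox8c, at 0 in both, is not drawn. Nuclear genes run from 0.301 to 1708 TPM in wild-type valves with 62 of 83 below the line, and the mitochondrial genes other than mt-Nd3 have more TPM than any nuclear gene except Atp5b.

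Several measures moved with this difference. Cardiac muscle markers had less TPM in mutant valves in 17 of 20 cases, with a median difference of −0.55 and a sum of 3812 TPM in wild-type and 2750 TPM in mutant valves. Of the 20, 13 were lower by at least 0.32 (65.0%, against 11.3% of all genes) and 1 higher (5.0%, against 32.7%). None was listed at 0 in either pool. The higher marker was Nppa, at 117 and 179 TPM, and Myl4 and Ttn were above 0 by less. Tnnt2, cardiac troponin T, was at 744 and 506 TPM and Myl2, the ventricular regulatory light chain, at 407 and 201 TPM. The 20 differences ran from −1.01 (Myl2) to 0.61 (Nppa), so the markers did not differ by a common amount. Fewer muscle cells, less RNA per muscle cell and other causes cannot be told apart in tissue RNA. Without the 3 muscle isoform genes Cox6a2, Cox7a1 and Cox8b the median of the nuclear members was −0.13. Heart muscle is rich in the transcripts of other subunits too, so leaving out these 3 does not take out all muscle transcripts. Transcript length moved with the lower TPM of the nuclear members too. Among coding genes outside these complexes with a mean of at least 50 TPM, 275 whose longest coding transcript is under 1000 bases had a median of −0.14, and 2731 longer ones had a median of 0.11. The 230 short genes left without cytosolic ribosomal proteins had a median of −0.10. The 68 nuclear members with at least 50 TPM, of any length, had a median of −0.16. Split by length, 49 nuclear members under 1000 bases with a mean of at least 1 TPM had a median of −0.19. The 33 of 1000 bases or more had a median of −0.10. With that filter, 851 other coding genes under 1000 bases had a median of −0.02 and 13758 longer ones a median of 0.13. Across 82 nuclear members length and difference, both on log2 scales, had a Pearson r of 0.11 and a Spearman rho of 0.23. These members share 2 libraries and are not independent, and the part of muscle content or transcript length in the lower TPM was not tested. Brown fat also uses Cox7a1 and Cox8b. Its defining marker Ucp1 was at 0.056 and 0.198 TPM. The 8 brown and white adipocyte markers summed to 50.6 and 48.0 TPM, and 4 of them had a mean of at least 1 TPM. Of these 4, Cidea (1.83 and 0.508 TPM) and Fabp4 (23.6 and 14.7 TPM) were lower in mutant valves. Dio2 (23.1 and 31.1 TPM) and Plin1 (1.23 and 1.33 TPM) were higher.

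**Figure D2:**
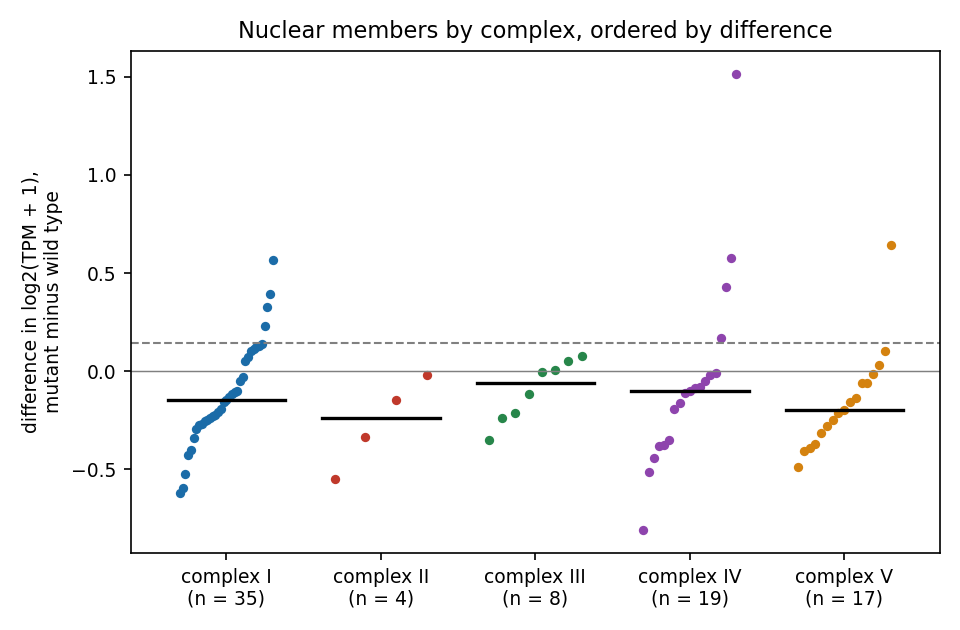
Mutant-minus-control difference on the log2(TPM + 1) scale for the 83 nuclear genes with a mean of at least 1 TPM, by complex and ordered within it; black bars are medians and the dashed line is the median of all genes, 0.14. The medians of all 5 complexes lie below 0, from −0.24 for complex II to −0.06 for complex III, whose sign is not kept under every alternative.

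Complex I, which oxidises NADH, had 35 nuclear members with a median difference of −0.15. Of these 24 lay below 0. By at least 0.32, 6 were lower (17.1%, against 11.3% of all genes) and 3 higher (8.57%, against 32.7%). Ndufb9, an accessory subunit and the most abundant of the 35, was at 277 TPM in wild-type and 179.9 TPM in mutant valves, a difference of −0.62 (chr15:58933756-58939488, plus strand, mm10). Ndufc1, a small subunit of the membrane arm, was at 62.0 and 40.7 TPM, a difference of −0.59. Ndufa11 was at 16.3 and 11.05 TPM, Ndufa9 at 63.0 and 46.7 TPM, Ndufa6 at 85.7 and 64.7 TPM and the iron-sulphur subunit Ndufs8 at 79.0 and 62.2 TPM. The next most abundant member, Ndufa1, was at 197 and 190.0 TPM.

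The catalytic core of complex I and its accessory subunits lay apart in these pools. The 7 nuclear core subunits, which hold the NADH site, the iron-sulphur clusters and the ubiquinone site, summed to 593 TPM in wild-type and 623 TPM in mutant valves, and their median difference was 0.08. The 28 accessory subunits summed to 2805 and 2495 TPM, with a median of −0.20 and 21 of 28 below 0. Ndufs3, a core subunit of the peripheral arm, had the largest positive difference of complex I, 0.57, at 58.5 and 87.1 TPM (chr2:90894634-90904827, minus strand). Ndufs1, the largest iron-sulphur subunit, was at 57.4 and 75.9 TPM, a difference of 0.40. Others differed less, among them Ndufv2 at 66.3 and 69.9 TPM, Ndufs7 at 113 and 123 TPM and Ndufv1, which binds NADH, at 59.0 and 57.8 TPM. So 4 of the 7 were above 0, and the median of the 7 was below the all-gene median of 0.14. Among the accessory genes Ndufb2, at 75.6 and 95.1 TPM, was the 1 that was higher by at least 0.32. The division into core and accessory subunits is textbook knowledge, and the comparison was made after the values had been seen. Of the 31-base stretches of Ndufs3 transcripts 55.0% also occur in transcripts of other genes, chiefly the pseudogene Gm12251, which was at 0.204 TPM in wild-type valves and listed at 0 in mutant valves.

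Complex II, succinate dehydrogenase, had 4 members, and all had less TPM in mutant valves. The difference was small for the flavoprotein Sdha, which was at 151 and 149 TPM, and larger for the others. Sdhb, the iron-sulphur subunit, was at 64.7 and 51.2 TPM, a difference of −0.33. The membrane anchor Sdhc was at 57.0 and 38.6 TPM, a difference of −0.55, and the other anchor, Sdhd, at 86.2 and 77.8 TPM. The median of the 4 was −0.24, and their sum was 359 TPM in wild-type and 317 TPM in mutant valves.

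Complex III, which passes electrons from ubiquinol to cytochrome c, had 8 nuclear members with a median of −0.06, 5 of them below 0. This median was 0.04 over members that share no sequence of 31 bases with another gene and 0.00098 over members with a transcript of at least 500 bases. Uqcrh, the hinge protein, was the most abundant at 373 and 316 TPM, followed by Uqcr10 at 259 and 203 TPM. Uqcr10 was also the 1 member lower by at least 0.32, with a difference of −0.35, and Uqcr11 was at 213 and 184 TPM. The large core proteins were nearly level, with Uqcrc1 at 39.6 and 36.4 TPM and Uqcrc2 at 70.6 and 71.0 TPM. The Rieske iron-sulphur protein gene Uqcrfs1 was at 24.7 and 26.2 TPM and Uqcrb at 118 and 122 TPM. Both had a difference of less than 0.1 above 0, which became negative when differences were centred on the median of all genes. Uqcrq, a small subunit, was at 161 and 161 TPM. So the lower sum of complex III, 1119.5 TPM against 1260 TPM in wild-type valves, came from its 3 most abundant small subunits, Uqcrh, Uqcr10 and Uqcr11.

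Complex IV, cytochrome c oxidase, had 20 nuclear members, of which 19 had a mean of at least 1 TPM. Their median was −0.10, with 15 below 0. By at least 0.32, 6 were lower (31.6%, against 11.3% of all genes) and 3 higher (15.8%, against 32.7%). The 11 widely expressed subunits summed to 3086 TPM in wild-type and 2776 TPM in mutant valves, and 10 of them were lower. Cox6a1 was at 415 and 409 TPM, Cox7c at 410.1 and 380.4 TPM and Cox6c at 426 and 313 TPM, a difference of −0.44. Cox8a was at 351 and 269.8 TPM, a difference of −0.38, and Cox4i1 at 300.3 and 263 TPM. Ndufa4, once assigned to complex I and now to complex IV, was at 312 and 291 TPM. Cox5b was at 242 and 229 TPM, Cox7a2 at 169 and 163 TPM, Cox6b1 at 163 and 145 TPM and Cox5a at 125 and 117 TPM, with differences between −0.16 and −0.05. Cox6a1 was among the genes that differed least, and its sign turned under quantile normalization. Cox7b was the 1 above 0, at 173 and 195 TPM. The supercomplex factor gene Cox7a2l was at 207 and 159.9 TPM.

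The heart and skeletal muscle isoforms had less TPM in mutant valves. Cox6a2 was at 117 TPM in wild-type and 66.5 TPM in mutant valves, and its difference of −0.81 was the most negative of all 97 genes (chr7:128205435-128206387, minus strand). Cox8b was at 73.9 and 51.5 TPM and Cox7a1 at 55.3 and 43.2 TPM, with differences of −0.51 and −0.35. Together the 3 summed to 247 and 161 TPM, a change of −34.6%, beside −27.9% for the sum of the cardiac muscle markers. A share within an isoform family does not depend on how the libraries are scaled. Cox6a2 made up 22.1% of Cox6a1 and Cox6a2 in wild-type valves and 14.0% in mutant valves. For Cox7a1 the share of its pair with Cox7a2 was 24.7% and 21.0%, and for Cox8b the share of the Cox8 family was 17.4% and 16.0%. All 3 muscle shares were lower in mutant valves, least so for Cox8b, since its partner Cox8a was lower as well.

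Of the other isoforms Cox4i2, Cox6b2 and Cox7b2 had more TPM in mutant valves, and Ndufa4l2 was nearly level. Cox4i2, which replaces Cox4i1 in lung and some vascular cells and responds to low oxygen, was at 24.1 and 36.4 TPM, a difference of 0.58. Its share of the pair was 7.43% in wild-type and 12.2% in mutant valves. Cox6b2, best known from testis, was at 10.3 and 14.1 TPM, with a share of 5.92% and 8.86%. Cox7b2, also best known from testis, made up 0.173% and 1.38% of its pair with Cox7b. Ndufa4l2, a relative of Ndufa4 induced by low oxygen, was at 2.26 and 2.24 TPM. Apart from Cox4i2 these genes had few TPM.

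**Figure D3:**
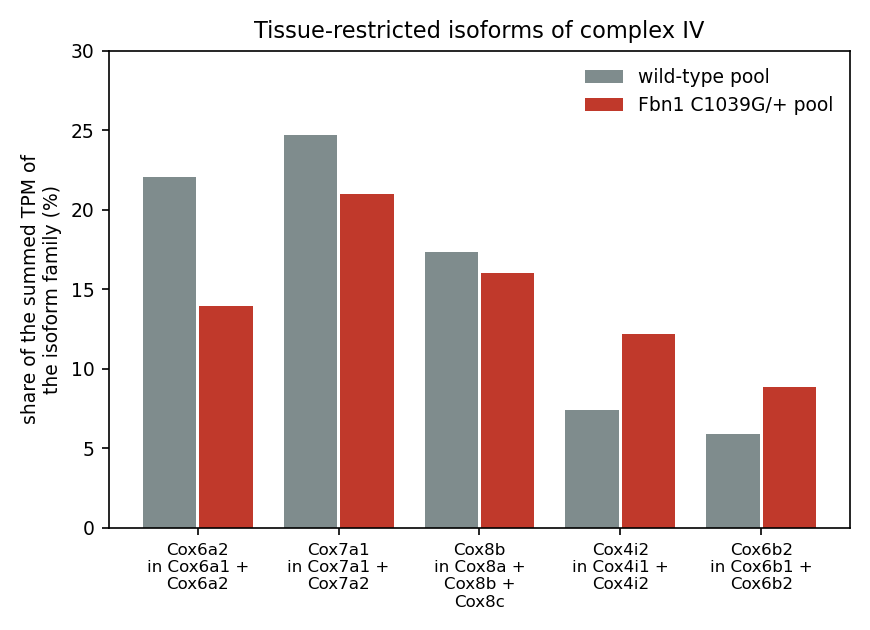
Share of each tissue-restricted isoform in the summed TPM of its family (vertical axis, percent) in the wild-type (grey) and Fbn1C1039G/+ (red) pools, each bar being 1 library. The muscle isoforms Cox6a2, Cox7a1 and Cox8b have lower shares in mutant valves, 14.0% against 22.1% for Cox6a2, and Cox4i2 and Cox6b2 higher ones.

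Sequence upstream of the start of these isoform genes is shown to set widely expressed members beside muscle isoforms. It was read from RefSeq promoter windows of build GRCm38.p6 and limited to bases before the start that no GENCODE exon covers. Capitals mark matches to the letters GCGCA, any base and GCGC in a row, which are bound by nuclear respiratory factor NRF1, CCGGAAG, the core of ETS sites such as those of GABP (NRF-2), or AAGATGGC, a YY1 core, on either strand. NRF1 and GABP are transcription factors known for binding promoters of respiratory chain genes. The stretches lie at chr5:115348982-115349129 (minus strand), chr9:79759879-79760103 (minus strand) and chr19:7217617-7217866 (minus strand) for the widely expressed genes. Those of the muscle isoforms lie at chr7:30183921-30184143 (plus strand) and chr7:140900447-140900696 (minus strand).
Cox6a1: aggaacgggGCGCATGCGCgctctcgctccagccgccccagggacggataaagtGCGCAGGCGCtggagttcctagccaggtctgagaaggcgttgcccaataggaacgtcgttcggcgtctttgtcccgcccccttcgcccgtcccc
Cox7a2: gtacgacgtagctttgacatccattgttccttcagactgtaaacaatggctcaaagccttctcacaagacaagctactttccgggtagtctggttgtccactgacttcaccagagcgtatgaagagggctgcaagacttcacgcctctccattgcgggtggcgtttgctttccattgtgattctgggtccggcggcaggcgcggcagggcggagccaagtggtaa
Cox8a: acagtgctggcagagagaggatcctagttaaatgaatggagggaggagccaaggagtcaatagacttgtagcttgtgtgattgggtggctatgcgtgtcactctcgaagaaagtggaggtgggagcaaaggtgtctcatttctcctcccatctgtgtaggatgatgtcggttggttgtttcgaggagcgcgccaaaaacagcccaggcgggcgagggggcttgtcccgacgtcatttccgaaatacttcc
Cox7a1: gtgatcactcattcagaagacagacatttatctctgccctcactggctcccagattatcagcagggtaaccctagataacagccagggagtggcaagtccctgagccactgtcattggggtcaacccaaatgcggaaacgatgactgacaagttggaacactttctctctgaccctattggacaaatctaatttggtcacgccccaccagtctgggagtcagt
Cox8b: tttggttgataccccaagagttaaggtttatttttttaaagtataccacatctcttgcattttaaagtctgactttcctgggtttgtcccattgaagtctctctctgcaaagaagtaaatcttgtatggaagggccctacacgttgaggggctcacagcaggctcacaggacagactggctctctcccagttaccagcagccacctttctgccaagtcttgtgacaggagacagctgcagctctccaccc
The stretch of Cox6a1 holds the NRF1 letters at 2 places, of which the first matches on both strands. The other 4 stretches hold no whole match, and an ETS match of Cox8a reaches across the start. The GC content of these stretches was 66.9% for Cox6a1, 53.8% for Cox7a2, 52.8% for Cox8a, 49.8% for Cox7a1 and 47.2% for Cox8b. A promoter window for Cox6a2 was not used here.

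Over the whole set, 69 of 84 nuclear members had a RefSeq promoter window of 300 bases, from 250 before the start to 50 after it, 3 of them through an older symbol. The NRF1 letters were in 16 of the 69 (23.2%), against 4.6% of 32851 promoters of the same length. Those 32851 include the members and genes of any TPM, so they are not matched to the members in expression. The ETS letters were in 15 (21.7%), against 8.86%, and the YY1 letters in 10 (14.5%), against 2.75%. Of the 10 YY1 matches 9 began after the start. None of these letters was found in 33 of the windows. The median difference of members with the NRF1 letters was −0.20 and of the others −0.11. With the ETS letters it was −0.24 against −0.10, and with the YY1 letters 0.05 against −0.16. A match describes letters in a window, not a bound site, and these groups share members.

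Complex V, the ATP synthase, had 17 nuclear members with a median of −0.20, and 14 lay below 0. All 5 genes of the catalytic head and central stalk were lower, with Atp5b, the catalytic beta subunit and the most abundant nuclear member of all, at 1708 and 1640 TPM. That difference of −0.06 had the opposite sign after quantile normalization. Its partner Atp5a1, the alpha subunit, was at 172 and 154 TPM. The small stalk subunits Atp5d and Atp5e were at 160.0 and 122 TPM and at 285 and 220.3 TPM, with differences of −0.39 and −0.37, and were the 2 of this group lower by at least 0.32. The proton-carrying c ring is made from 3 genes with the same mature protein. Atp5g1 was at 386 and 311 TPM, Atp5g2 at 120.0 and 103 TPM and Atp5g3 at 255 and 232 TPM. All 3 were lower and their proportions were similar, with Atp5g1 giving 50.8% of the sum in wild-type and 48.1% in mutant valves.

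The membrane and peripheral stalk subunits of complex V were less uniform. Atp5l, subunit g of the membrane part, was at 369 and 278 TPM, a difference of −0.41, but 85.4% of its 31-base stretches also occur in other genes' transcripts, mostly pseudogenes, so its reads can be divided among copies. Atp5k, subunit e, was at 192 and 158 TPM and Atp5j2, subunit f, at 103 and 102 TPM. In the peripheral stalk Atp5h was at 323 and 281 TPM and Atp5o at 158 and 133 TPM. Atp5j was at 332 and 341 TPM and Atp5f1 at 97.7 and 105 TPM, so 2 of its 4 genes were higher and 2 lower. The difference of Atp5f1, 0.11, became −0.04 when centred on all genes. Neither Atp5s (10.2 and 6.99 TPM) nor Atp5sl (7.74 and 12.6 TPM) encodes a subunit, and they had the most negative and most positive differences of this group, −0.49 and 0.64.

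The 13 mitochondrially encoded genes together took about the same share of TPM in both pools, 8.35% in wild-type and 8.48% in mutant valves. After TPM were rescaled without mitochondrial, globin, ribosomal protein, Gm and Rik genes the shares were 12.3% and 12.0%, so their order was not kept. Their sum was 83454 and 84784 TPM as deposited, so per TPM of nuclear members there were 6.19 TPM of mitochondrial ones in wild-type and 7.0 in mutant valves. The median difference of the 13 was −0.08, with 8 below 0, and quantile normalization turned the sign of this median to 0.07. Of the 13, 3 were lower by at least 0.32 (23.1%, against 11.3% of all genes) and none higher (against 32.7%). The single genes differed in direction. In complex IV mt-Co1 was at 12510 and 13967 TPM and mt-Co2 at 12303 and 14978 TPM, while mt-Co3 was at 6637 and 5057 TPM. The cytochrome b gene mt-Cytb of complex III was at 6876 and 7890 TPM. Both ATP synthase genes were lower, mt-Atp6 at 11501 and 8951 TPM and mt-Atp8 at 5247 and 4569 TPM. So the mitochondrial part of complex V differed by −19.3% in sum and that of complex IV by 8.12%.

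In complex I mt-Nd4l was at 4983 and 6142 TPM and mt-Nd4 at 5527 and 6422 TPM, both higher in mutant valves. The other 5 were lower by small amounts or, for mt-Nd3, by more. mt-Nd1 was at 9982 and 9423 TPM, mt-Nd2 at 3310.4 and 3184 TPM, mt-Nd5 at 2830 and 2654 TPM and mt-Nd6, on the opposite strand, at 1482 and 1359 TPM. mt-Nd3 was at 266 and 187 TPM, far below its neighbours in both pools, with a difference of −0.50.

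The differences followed the order of the genes on mitochondrial DNA in part. The adjacent genes mt-Atp8, mt-Atp6, mt-Co3 and mt-Nd3 span chrM:7766-9806 on the plus strand and had differences of −0.20, −0.36, −0.39 and −0.50. On one side of them lie mt-Co1 and mt-Co2, at 0.16 and 0.28, and on the other mt-Nd4l and mt-Nd4, which share a transcript and an overlap, at 0.30 and 0.22. All 4 genes of the lower block and mt-Co2, mt-Nd4l, mt-Nd4 and mt-Cytb kept their sign under each alternative that gave them a value. The signs of mt-Co1, mt-Nd1, mt-Nd2, mt-Nd5 and mt-Nd6 turned under quantile normalization. This grouping was noticed in the values and has no replicate.

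Nuclear copies of mitochondrial DNA can take reads from these genes. Transcripts of other genes, nuclear copies among them, held over 98% of the 31-base stretches of mt-Co2, mt-Co3, mt-Atp6, mt-Nd4l and mt-Nd3, and none of those of mt-Nd1. The copy of mt-Co2, Gm28661, was at 5152 TPM in wild-type and 4981 TPM in mutant valves. A copy of part of mt-Co1, Gm29216, was at 7682 and 7596 TPM, and that of mt-Nd3, Gm28438, at 169.9 and 115 TPM. With copies that hold at least 25% of these stretches added by length, mt-Co2 was at 17437 and 19944 TPM, a difference of 0.19, and mt-Nd3 at 434 and 302 TPM, a difference of −0.53. The signs of mt-Co1, mt-Co2, mt-Co3 and mt-Nd3 were the same with the copies added. The other genes had no such copy, or copies with almost no TPM, so their values could hardly change.

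**Figure D4:**
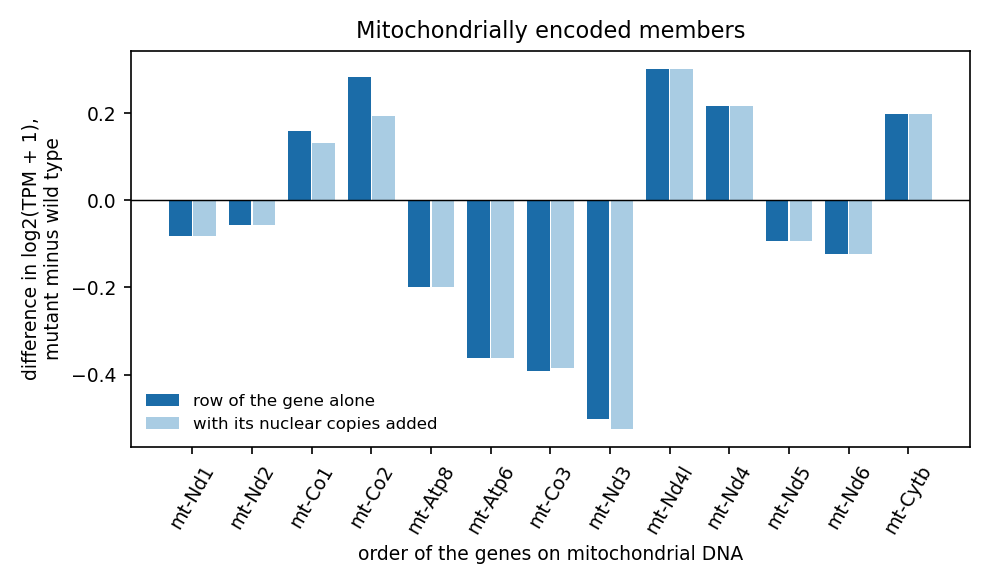
Mutant-minus-control difference on the log2(TPM + 1) scale for the 13 mitochondrially encoded genes in their order on mitochondrial DNA, for the row of each gene alone (dark) and with its nuclear copies added (light). The 4 adjacent genes from mt-Atp8 to mt-Nd3 lie between −0.20 and −0.50, between higher genes on both sides; under quantile normalization mt-Co1, mt-Nd1, mt-Nd2, mt-Nd5 and mt-Nd6 change sign.

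Genes that build, feed or regulate the complexes had higher medians than the nuclear subunits. Over all genes the median was 0.14, with 11.3% lower by at least 0.32 and 32.7% higher. Of 15 complex I assembly factors 10 were above 0 (median 0.13, none lower by at least 0.32 and 3 higher), with Tmem126a at 77.2 and 84.5 TPM and Nubpl, which delivers iron-sulphur clusters, at 24.7 and 41.4 TPM. The 6 assembly factors of complex III had a median of 0.28, with 3 higher by at least 0.32 and none lower. Bcs1l, which inserts the Rieske protein, was at 6.65 and 10.5 TPM and Ttc19 at 44.9 and 52.5 TPM. Those of complex II (4 genes, median 0.05, 1 higher and none lower, with Sdhaf4 at 26.5 and 23.7 TPM) and complex V (3 genes, median 0.03, 1 higher and none lower, with Atpaf1 at 39.1 and 39.9 TPM and Atpaf2 at 21.3 and 27.1 TPM) were near or below the all-gene median. Complex IV assembly factors had 19 measured genes and a median of −0.08, with 4 lower by at least 0.32 and 3 higher. They included the copper chaperone Cox17, at 119.8 and 89.7 TPM, and the insertase Cox18, at 15.2 and 24.3 TPM.

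The mitochondrial transcription and replication list had 12 genes and a median of 0.17. In it 4 were higher by at least 0.32 (33.3%, against 32.7% of all genes) and 1 lower (8.33%, against 11.3%). Its most abundant gene, Mterf3, a negative regulator of mitochondrial transcription, was at 121 and 190.4 TPM. Among 11 nuclear regulators the median was 0.12, with 3 higher by at least 0.32 (27.3%, also near the share of all genes) and none lower. Esrrg, an orphan receptor that drives oxidative genes in heart, was at 12.5 and 26.3 TPM and Gabpa, the DNA-binding part of GABP, at 78.0 and 71.6 TPM. The coactivator Ppargc1a was at 8.99 and 11.3 TPM and Nrf1 at 27.6 and 28.9 TPM, both given as the best known regulators. Mitochondrial ribosomal proteins (78 genes) had a median of −0.01, with 10 lower by at least 0.32 and 10 higher. Mrps21 was at 165 and 164 TPM and Mrpl23 at 16.9 and 4.53 TPM. The other genes of the respiratory chain outside the symbol rule (6 genes) had a median of 0.000026, with no gene lower by at least 0.32 or higher. Ndufab1, the acyl carrier protein of complex I, was at 205 and 191 TPM and cytochrome c, Cycs, at 16.8 and 19.8 TPM.

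The medians of fuel pathways lay between those of the nuclear subunits and of all genes. Beside the counts that follow, 11.3% of all genes were lower by at least 0.32 and 32.7% higher. The TCA cycle and pyruvate dehydrogenase list had 13 of 16 genes below 0 and a median of −0.09, with 1 lower by at least 0.32 and none higher. That gene was Mdh2, mitochondrial malate dehydrogenase, at 206 and 164 TPM. Fatty acid oxidation (14 genes) had a median of −0.06, with 1 lower and 2 higher by at least 0.32, and its most abundant gene Hadhb was at 114 and 107 TPM while the thiolase Acaa2 was at 57.1 and 40.3 TPM. Carriers and porins (7 measured genes) had a median of 0.09 and 1 gene higher by at least 0.32, Ucp2, at 313 and 406 TPM. Glycolysis (14 genes) had a median of 0.04 with 2 higher by at least 0.32 and none lower, Gapdh being at 1362 and 1393 TPM and Hk2 at 20.9 and 36.2 TPM. Cytosolic ribosomal proteins (91 measured genes), which are short and abundant like many subunits, had a median of −0.34, with 51 lower by at least 0.32 and 4 higher, and Rpl10 was at 3506 and 2856 TPM and the copy gene Rps12l1 at 201 and 333 TPM. Their median was below that of the nuclear subunits.

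**Figure D5:**
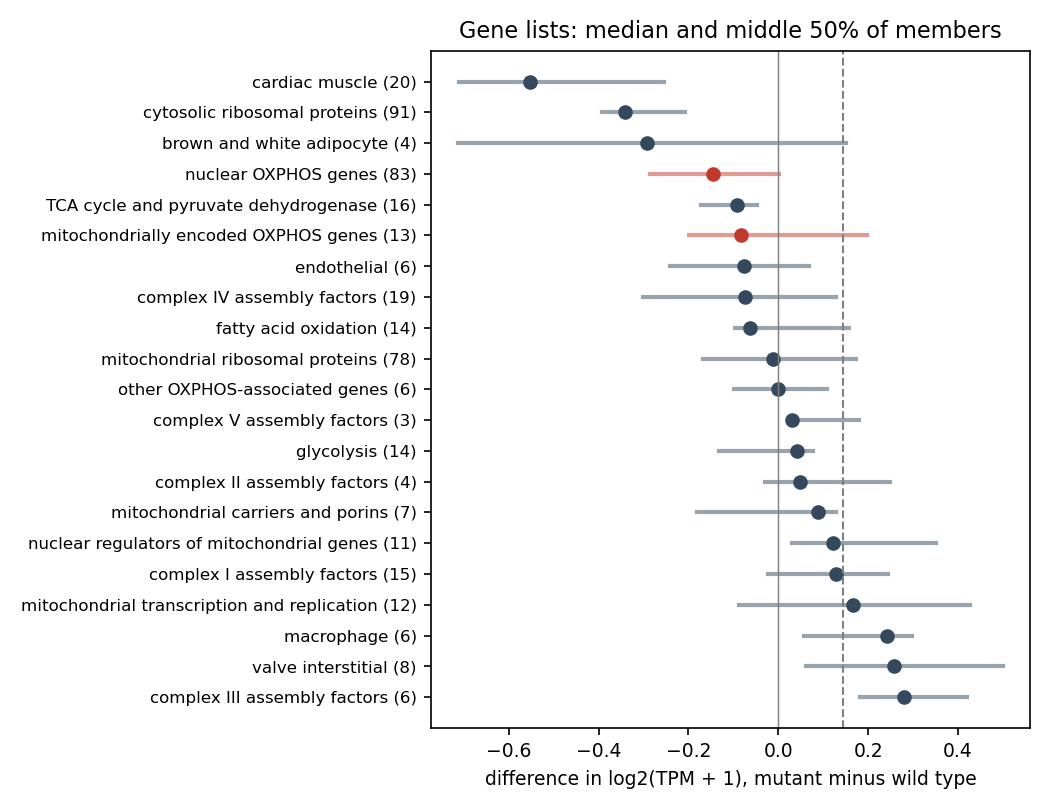
Median of the mutant-minus-control differences on the log2(TPM + 1) scale (points), and middle 50% of the genes (bars) for the oxidative phosphorylation genes (red) and other gene lists (dark), with the number of measured genes in brackets and the all-gene median of 0.14 as a dashed line. Nuclear subunit genes at −0.15 lie between cytosolic ribosomal proteins at −0.34 and the TCA cycle at −0.09, and cardiac muscle is lowest of the lists drawn at −0.55; neutrophil, T cell and red cell markers are not drawn.

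Other cell markers differed between the pools as well. Macrophage markers summed to 1582 TPM in wild-type and 1913 TPM in mutant valves (median of 6 markers 0.24), with Lyz2 at 1288 and 1587 TPM and Adgre1 at 22.5 and 30.6 TPM. Neutrophil markers summed to 18.5 and 104 TPM (7 markers, median 1.36, S100a9 at 2.34 and 48.0 TPM). Of these, 4 were higher by at least 0.32 (57.1%, against 32.7% of all genes). Camp, at 1.49 and 0.949 TPM, was the 1 lower by that much (14.3%, against 11.3%). Mpo and Retnlg differed by less. T cell markers summed to 79.1 and 53.8 TPM (6 markers, median −1.02, Cd3e at 19.2 and 6.35 TPM and Cd3d at 19.7 and 26.9 TPM). Red cell genes summed to 6801 and 687 TPM (5 genes, median −3.32, Hbb-bs at 3769 and 388 TPM and Hba-a2 at 1688 and 150.4 TPM). Alas2 of that list differed far less, at 27.6 and 23.3 TPM. Interstitial markers summed to 18795 and 18621 TPM (8 markers, median 0.26, with Postn at 1269 and 2263 TPM and Lum at 1213 and 872 TPM). Endothelial markers summed to 589.6 and 607 TPM (6 markers, median −0.08), with Pecam1 at 223 and 241 TPM and Kdr at 18.5 and 12.3 TPM. In the adipocyte list Dio2 was at 23.1 and 31.1 TPM and Fabp4 at 23.6 and 14.7 TPM. The part of these cell types in the values of the subunit genes was not tested.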

How the data were processed

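RNA of pooled mitral valves was amplified (Ovation RNAseq v2, NuGEN), turned into Nextera XT libraries and read on an Illumina HiSeq, per the labels' protocols. The submitters' processing notes name Trimmomatic, HISAT2, kallisto and the mm10 genome. No version, role of a tool, annotation or gene summing step is stated in those notes as used here. The authors deposited 1 TPM value per gene symbol and library, per the file header. Amplified reads without molecular identifiers are not independent molecules, and TPM keeps no depth, so no interval or detection limit was computed.

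Differences used a pseudocount of 1, which understates those of low genes, and genes averaging 1 TPM or more over both libraries. Calls are differences of at least 0.32 or 1 on that scale, without a test. Sequences of 31 bases were compared, on both strands, over GENCODE M21 transcripts (mm10). In all, 83 nuclear members had a transcript there, of which 25 shared no such sequence with another gene and 18 shared more than 25%. Python 3.11.15, pandas 2.3.3, numpy 2.4.6 and scipy 1.17.1 were used. The members, gene lists, alternatives and rules were chosen with earlier results of these data known. Named members are those of the isoform pairs, all mitochondrial genes and, in each complex, the 2 most abundant and the 2 largest differences in each direction among genes with at least 5 TPM; further members were added after their values were seen. From each other list the most abundant gene was named, and that with the largest difference among genes with a mean of at least 5 TPM. Genes below that mean can have larger differences. Ppargc1a, Nrf1, Ucp1 and marker genes chosen afterwards were named beside these. Mitochondrial rRNA and tRNA were not analysed here. The values of 1 member are not reported here.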

Additional observations from a re-analysis of the deposited data

How the results depend on the processing

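The alternatives used pseudocounts of 0.1 and 5, filters at 0 and 5 TPM, centring on the median of all genes, quantile normalization, rescaling without mitochondrial, globin, ribosomal protein, Gm and Rik genes, members without shared sequences of 31 bases, and coding genes whose longest transcript has 500 bases or more. Leaving out muscle isoforms, adding nuclear copies and centring on genes with at least 50 TPM were chosen after seeing the data. A median was taken as moved when it changed by 0.1 or more. Both pseudocounts, both filters and the rescaling moved no median by that much and no count by over 1.5 times, and the rescaling gave −0.14 for mitochondrial genes, −0.12 for complex III and −0.16 for complex IV. Centring on all genes gave medians of −0.29 for nuclear and −0.23 for mitochondrial genes and of −0.29, −0.38, −0.20, −0.25 and −0.34 for complexes I to V, with 37 nuclear members lower by at least 0.32 and 4 higher. Quantile normalization gave 0.065 for mitochondrial genes, −0.25, −0.36, −0.18 and −0.20 for complexes I to IV, and 31 lower and 4 higher. Centring on genes with at least 50 TPM gave 30 lower. The shares of all genes stated above are for values before centring or quantile normalization, so the counts under these alternatives have no such share beside them. Members without shared sequences gave 0.037 for complex III, −0.35 for IV and −0.38 for V, 8 lower and 2 higher, and, with mt-Nd1 alone, mitochondrial shares of 0.998% and 0.942%, because fewer members remained. Transcripts of at least 500 bases gave 0.00098 for complex III.

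Of 48 named members 10 changed sign, in 15 of 481 comparisons, all under quantile normalization or centring. Pseudocounts, filters and subsets of members cannot turn the sign of a single gene, so many of the 481 comparisons could not have differed. Quantile normalization gave Atp5b 0.073, Atp5f1 −0.022, Cox6a1 0.012, Uqcrb −0.074, Uqcrfs1 −0.057, mt-Co1 −0.065, mt-Nd1 0.14, mt-Nd2 0.12, mt-Nd5 0.093 and mt-Nd6 0.0499. Centring gave Atp5f1 −0.038, Uqcrb −0.0897 and Uqcrfs1 −0.064, and on genes with at least 50 TPM Uqcrb −0.041 and Uqcrfs1 −0.015. The cause was not tested. No paired analysis was possible because each genotype has 1 library, and no replicate could be left out. Depth is unknown, and low members such as Cox7b2 (0.54 to 2.82 over the pseudocounts) are uncertain.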
